A study of Mus musculus with 24 samples.

Results

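Round spermatids were compared with spermatocytes in the 2 mouse genotypes that carry Ago1, Ago3 and Ago4, the wild type (Ago413+/+) and the heterozygote (Ago413+/-). The comparison takes 16 of the 24 small RNA libraries, 8 of round spermatids and 8 of pachytene/diplotene spermatocytes, with 4 of each cell type per genotype, and a term for genotype. Of 1978 mature miRNAs in the deposited table of raw counts, 436 reached 10 counts in 3 or more of the 16 libraries and were tested, and 803 had no count in any of them. The mice were C57BL/6J adults of 10 to 15 weeks. The Ago413 allele is a constitutive germline deletion that takes out Ago1 and parts of Ago3 and Ago4 on chromosome 4. Diploid cells of Ago413+/- mice carry 1 copy of it, while a haploid round spermatid of these mice can hold the deleted or the intact allele. Testes of 2 to 5 mice were pooled for each fraction, and cells were enriched by sedimentation. By the study's methods the pooled fractions were 70 to 80% pure for spermatocytes and 80 to 90% pure for round spermatids, so purity cannot be told apart from cell type and other cells can be present in every library. Ago413-/- libraries enter a test of whether the difference between the cell types depended on genotype, 1 alternative and the counts given for miR-199b-5p.

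The 16 libraries held between 305208 and 721314 counts in spermatocytes and between 343564 and 1072637 counts in round spermatids. Levels are given as CPM, the counts in 1000000 counts of a library after scaling with TMM factors. A count of 0 leaves room for 9.83 CPM at the lowest depth and for 2.80 CPM at the highest, by counting error alone. Differences are given as log2 fold changes of round spermatids over spermatocytes, with standard errors (SE), from the quasi-likelihood test of edgeR. In libraries of fractions a lower level cannot be told apart from fewer cells of the type that makes the miRNA. No pair of replicate libraries agreed within sampling noise, with 22.8 or more as the chi-square per degree of freedom over 24 pairs.

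miRNAs are short RNAs cut from either arm of a hairpin precursor, the 5p or the 3p arm, and loaded into Argonaute proteins, which they guide to messenger RNAs that pair with bases 2 to 8 of the miRNA, the seed. Pachytene spermatocytes are in the long first meiotic prophase, when the X and Y chromosomes are silenced as a chromatin domain, and round spermatids are the haploid cells that follow the meiotic divisions and store messenger RNAs for later use. Clusters of miRNAs on chromosome X and the miR-34 and miR-449 families are known for their high levels in male germ cells, and males that lack both families are infertile.

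The sequences below, from RefSeq (GRCm38.p6), belong to the miRNAs on which the results turn, with the seed in capitals. The first group holds the leading miRNAs of both cell types and 2 sets that share a seed among the 25 most abundant, let-7 and miR-92a with miR-25.
miR-881-3p: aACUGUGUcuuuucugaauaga
miR-871-3p: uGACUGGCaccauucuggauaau
miR-191-5p: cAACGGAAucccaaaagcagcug
let-7g-5p: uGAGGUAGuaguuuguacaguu
let-7a-5p: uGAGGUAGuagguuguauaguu
let-7i-5p: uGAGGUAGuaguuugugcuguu
miR-92a-3p: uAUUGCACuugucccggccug
miR-25-3p: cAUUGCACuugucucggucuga
The second group holds the miRNAs around the differences described further on, the miR-199 family and miR-146a-5p with its relative miR-146b-5p, which share a seed.
miR-199a-5p: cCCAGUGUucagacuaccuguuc
miR-199b-3p: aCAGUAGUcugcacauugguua
miR-146a-5p: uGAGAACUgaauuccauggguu
miR-146b-5p: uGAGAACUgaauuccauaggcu
A mature sequence was matched for 360 of the 436 miRNAs tested, and a hairpin gene for 432. miR-34c-5p, miR-199b-5p, miR-30d-5p and miR-375-3p are given by name.

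The spermatocyte and round spermatid fractions had nearly the same abundant miRNAs, in nearly the same order. The 25 most abundant miRNAs of each cell type shared 24 names, 96.0% of each list, and the 50 most abundant were the same 50 in both. miR-21a-5p ranked 25 in spermatocytes and 26 in round spermatids, and the X-linked miR-743a-3p ranked 26 and 25. Over all 436 miRNAs tested, the log2 mean levels of the cell types correlated with Pearson's r of 0.993 and Spearman's rho of 0.986, across miRNAs that are not independent and share their libraries.

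**Figure D1:**
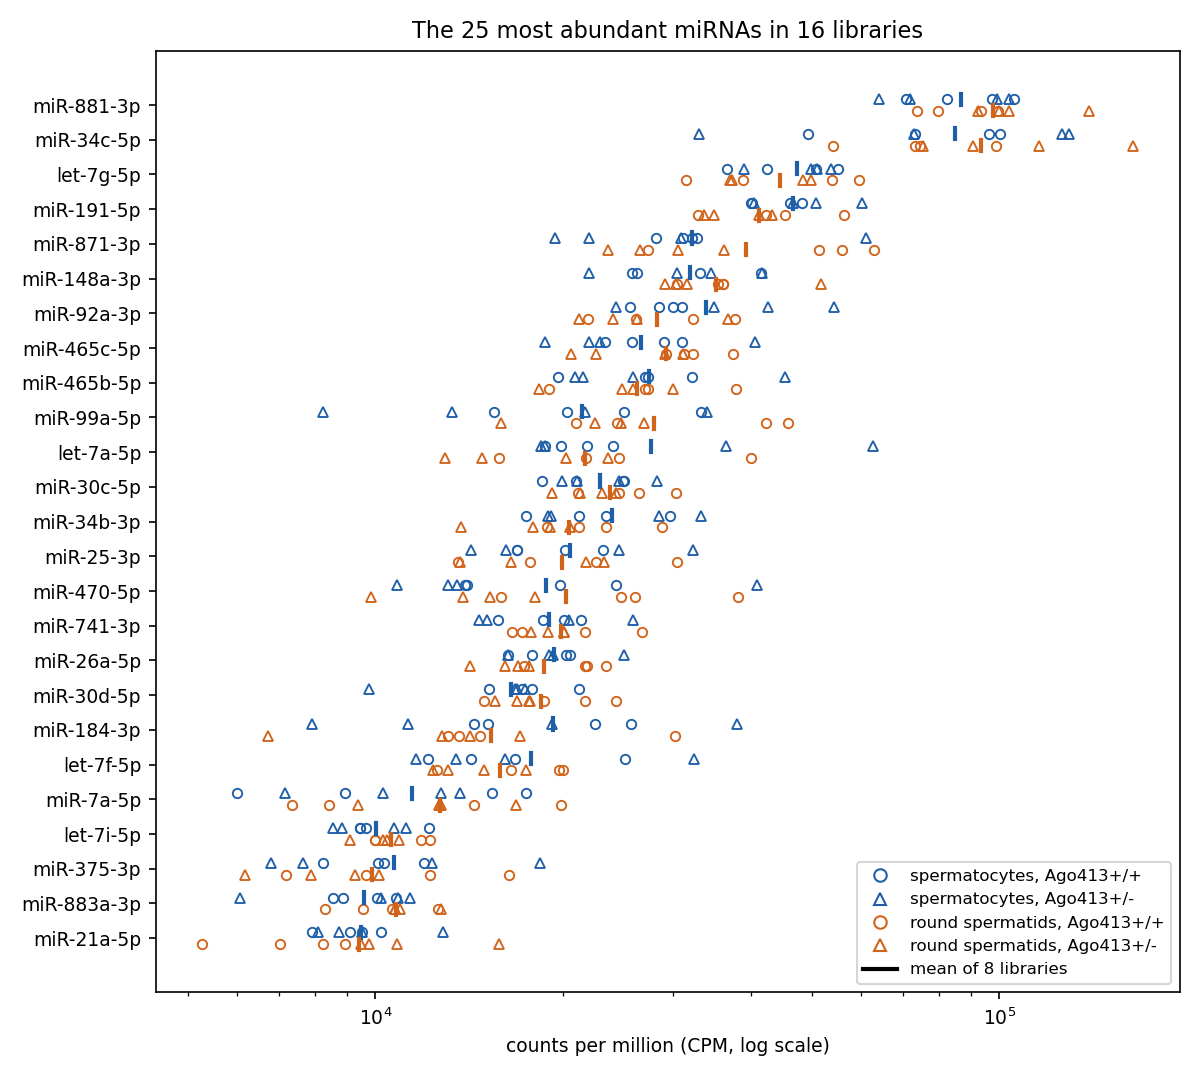
CPM on a log axis of the 25 most abundant miRNAs in each of the 8 spermatocyte (blue) and 8 round spermatid (orange) libraries, with Ago413+/+ as circles and Ago413+/- as triangles, and the mean of 8 libraries as a bar. The symbols of the cell types overlap in all 25 rows.

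The 25 most abundant miRNAs took 69.6% ± 2.15 of the counts in spermatocytes and 70.2% ± 2.02 in round spermatids (mean ± SD, n = 8 each). Of these, 16 ranked among the 25 highest in every one of the 16 libraries. miR-881-3p led 11 libraries and miR-34c-5p the other 5, and both together took from 11.1% to 27.5% of a library's counts.

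miR-881-3p, from an X-linked hairpin at chrX:66801944-66802021, ranked 1 or 2 in every library. Its lowest, median and highest levels were 64038, 89840 and 105682 CPM in spermatocytes and 73654, 96530 and 139191 CPM in round spermatids. The log2 fold change was 0.16 (SE 0.15, 95% interval -0.15 to 0.47), within the spread between libraries.

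miR-34c-5p, a member of a family known for its induction by p53, is encoded at chr9:51103034-51103110, opposite to the strand of Btg4. Its lowest, median and highest levels were 32952, 84642 and 129104 CPM in spermatocytes and 54033, 83075 and 163813 CPM in round spermatids. It was the more variable of the leading pair, and its rank ran from 1 to 14. The log2 fold change was 0.11 (SE 0.25, 95% interval -0.42 to 0.64).

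The next places were held by let-7g-5p and miR-191-5p in both cell types. let-7g-5p, from an intron of Wdr82 at chr9:106178840-106178927, had 47328 ± 6999 CPM in spermatocytes and 44528 ± 9762 CPM in round spermatids (SD, n = 8 each). miR-191-5p, from an exon of the lincRNA gene 4833445I07Rik at chr9:108568319-108568392, had 46611 ± 6883 CPM and 41189 ± 7722 CPM. Neither difference passed the test, with log2 fold changes of -0.09 and -0.18.

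X-linked miRNAs held 7 of the 25 places. Beside miR-881-3p they were miR-871-3p, miR-465c-5p, miR-465b-5p, miR-470-5p, miR-741-3p and miR-883a-3p, all encoded on the minus strand of a cluster at chrX:66776757-66839125. miR-871-3p had 32198 ± 12648 CPM in spermatocytes and 39326 ± 15193 CPM in round spermatids, and its 2 highest levels were 62949 CPM in a round spermatid library and 61072 CPM in a spermatocyte library. The log2 fold changes of these 7 ran from -0.07 for miR-465b-5p to 0.24 for miR-871-3p.

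Among miRNAs with a matched sequence, which leaves out miR-34c-5p, the let-7 sequences with the seed GAGGUAG were the largest group, with 9 tested members and 11.7% ± 2.42 of the counts in spermatocytes against 10.5% ± 1.57 in round spermatids. let-7 miRNAs are known for their rise with differentiation and their repression of growth genes. let-7i-5p was among the steadiest of the abundant miRNAs, with 10007 ± 1249 CPM and 10596 ± 1031 CPM. let-7a-5p was among the least steady, since Ago413+/- spermatocyte replicate 4 held 62786 CPM and the other spermatocyte libraries from 18416 to 36407 CPM. The AUUGCAC seed of miR-92a-3p and miR-25-3p took 5.45% ± 1.12 and 4.78% ± 0.92, and the AUUUAGA seed of the miR-465 5p arms 5.69% ± 1.00 and 5.80% ± 0.81.

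Among the other abundant miRNAs, miR-99a-5p, from an intron of Mir99ahg, had the highest log2 fold change of the 25, 0.37 (SE 0.26), with 21395 ± 9163 CPM in spermatocytes and 27959 ± 10528 CPM in round spermatids. miR-184-3p had the lowest, -0.35 (SE 0.29), with 19258 ± 9532 CPM and 15297 ± 6710 CPM. The adjusted p-value (edgeR) of each of the 25 was 0.881 or higher. Their 95% intervals lay between -0.97 and 0.90 on the log2 scale. A 2-fold difference between the fractions in either direction was thus outside the interval of all 25.

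Levels of different miRNAs carry a limit from the counting. miR-199a-3p, with 2 hairpin genes, and miR-199b-3p, with 1, have the same mature sequence, and their counts stood in a ratio between 2.00 and 2.01 in all 16 libraries. miR-465b-3p had 2.00 times the counts of the identical miR-465a-3p in every library. Reads were thus counted once for each hairpin that holds the sequence, which raises the level of a miRNA with several hairpins and leaves its fold change between cell types as it is. Counts were also divided by the number of hairpin genes matched in RefSeq, an alternative added after the data were seen. Then 23 of the 25 most abundant miRNAs remained and the cell types still shared 24 of 25. The match is not complete, with 1 hairpin for miR-465b-5p and 2 for miR-465b-3p, so this corrects the levels only in part.

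A call needed an adjusted p under 0.05 and a 2-fold difference or more, and 1 of the 436 miRNAs was called (0.229% of those tested), miR-199b-5p, which was lower in round spermatids. None was called higher (0.0%), and the second lowest adjusted p was 0.547. The unadjusted p was under 0.05 for 23 miRNAs, 5.28% of those tested, 11 with a higher and 12 with a lower level in round spermatids. DESeq2 also gave 23 at an unadjusted p under 0.05 and called 1. The levels of the 8 round spermatid and the 8 spermatocyte libraries overlapped for all 436 miRNAs.

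Most miRNAs were measured closely enough to bound the difference in CPM between the fractions. Other cells in the fractions can make this differ from the difference between pure cell types, and CPM do not measure amounts per cell. The median log2 fold change was -0.05, the middle 50% of values lay between -0.21 and 0.15, and the 95% interval was within a 2-fold difference in either direction for 328 of 436 miRNAs (75.2%). That held for 88 of the 100 most abundant miRNAs and for 47 of the 100 least abundant, where a difference of that size was often not detectable at this depth. With RLE scaling the median was -0.03, and with library totals -0.08.

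**Figure D2:**
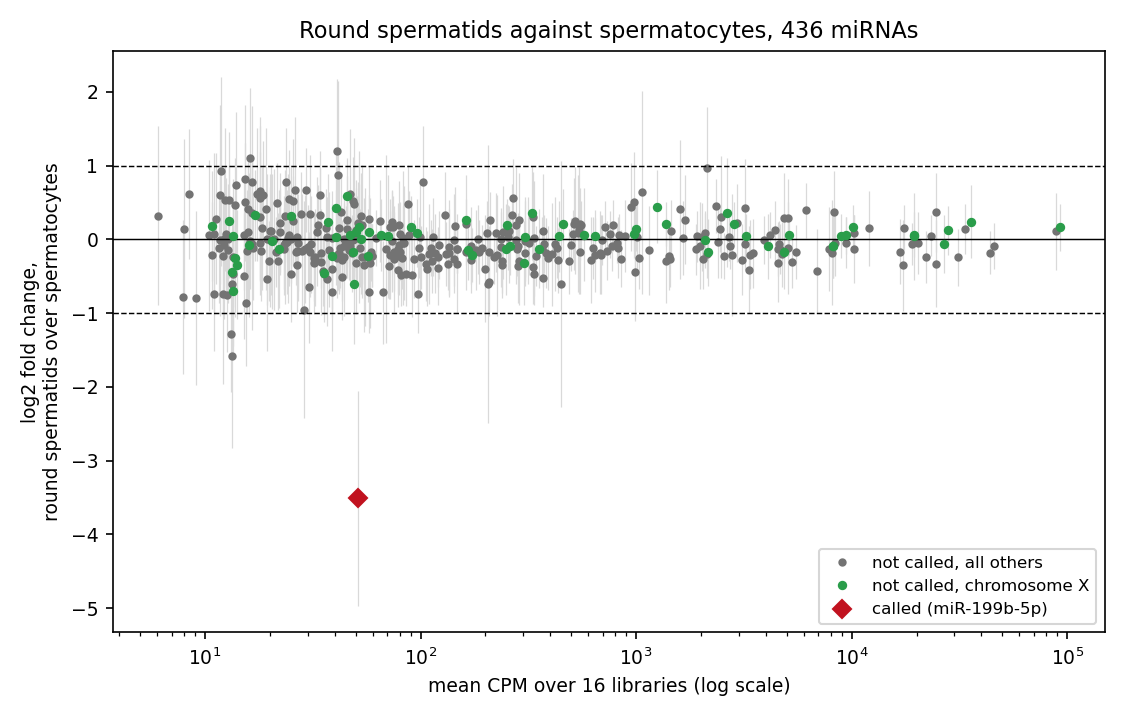
Log2 fold change of round spermatids over spermatocytes (y) against the mean CPM over the 16 libraries (x, log axis) for 436 miRNAs, with 95% intervals in grey, X-linked miRNAs in green and the called miR-199b-5p as a red diamond. Dashed lines mark 2-fold differences, and the called point at -3.51 stands apart from the others.

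Libraries of different cell types were as alike as libraries of the same cell type. Over the 436 miRNAs, the median Pearson r of log2(CPM + 2) was 0.958 for 28 pairs of spermatocyte libraries, 0.967 for 28 pairs of round spermatid libraries and 0.964 for 64 pairs across cell types. The most similar library was of the other cell type for 9 of the 16, where each had more candidates of the other cell type than of its own. The 64 pairs across cell types include those of equal genotype and replicate number, which may share mice. These correlations are across miRNAs and carry no test.

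miR-199b-5p is cut from a hairpin at chr2:32318460-32318569 on the plus strand, within Dnm1 on the opposite strand. miR-199 genes are known from mesenchymal cells such as fibroblasts, and the family stood in the list of peritubular and mesenchymal markers. The hairpin of Mir199b is shown with its 3p arm, which is the miR-199b-3p printed above, in capitals.
Mir199b hairpin: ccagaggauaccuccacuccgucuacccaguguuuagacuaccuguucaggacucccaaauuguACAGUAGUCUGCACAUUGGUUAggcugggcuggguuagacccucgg
The closest stretch of this hairpin to miR-199a-5p has 22 of its 23 bases, with the substitution C10U counted from the 5′ end of miR-199a-5p. A read that differs at that base can thus fit either miRNA, and the number of mismatches allowed is not given in the sources used here.

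miR-199b-5p was at 277.5, 23.7, 171 and 6.54 CPM in the Ago413+/+ spermatocyte libraries (replicates 1 to 4) and at 9.80, 72.6, 60.4 and 135.8 CPM in the Ago413+/- spermatocyte libraries. In round spermatids it was at 14.4, 1.95, 0.0 and 6.14 CPM in Ago413+/+ and at 11.0, 15.1, 2.56 and 11.6 CPM in Ago413+/-. In spermatocytes 6 of the 8 libraries lay above all round spermatid libraries, and the other 2 lay among them. The counts behind these levels ran from 2 to 167 in spermatocytes and from 0 to 9 in round spermatids. No round spermatid library thus reached the 10 counts of the filter, and miR-199b-5p was tested through its spermatocyte libraries alone. Its entry into the test was therefore tied to the direction of the difference.

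The mean was 94.7 CPM in spermatocytes and 7.85 CPM in round spermatids, a log2 fold change of -3.51 (SE 0.70, n = 8 each, adjusted p = 0.0288 by edgeR), or 11.4-fold higher in spermatocytes. The log2 fold change was -4.40 (SE 1.09) within Ago413+/+ and -2.72 (SE 0.68) within Ago413+/-, neither past the threshold alone, with adjusted p-values of 0.489 and 0.260 (edgeR). In the 10 libraries numbered up to 60 in the labels it was -3.19 (SE 0.83, adjusted p = 0.285 by edgeR), and in the 6 numbered above 60 it was below the filter on low counts.

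The call rested on single libraries. Leaving out 1 library at a time ended it in 10 of 16 cases, and over the 16 the log2 fold change ran from -3.72 to -3.08 and the adjusted p (edgeR) from 0.00709 to 0.152. The libraries whose loss ended the call were Ago413+/+ spermatocyte replicate 1, Ago413+/- spermatocyte replicates 2 and 4, Ago413+/- round spermatid replicates 1, 3 and 4, and Ago413+/+ round spermatid replicates 1, 2, 3 and 4.

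The other miRNAs of the family did not follow it. miR-199a-5p was at 260 ± 133 CPM in spermatocytes and 294 ± 188 CPM in round spermatids, with a log2 fold change of 0.19 (SE 0.38). miR-199b-3p, whose counts include reads of the identical miR-199a-3p, was at 1005 ± 335 CPM and 1020 ± 307 CPM, with a log2 fold change of 0.03 (SE 0.22). As a percentage of the miR-199a-5p counts, those of miR-199b-5p ran from 3.03% to 85.7% in spermatocytes and from 0.0% to 6.38% in round spermatids, so that miR-199b-5p was no fixed share of its near-identical relative. With the counts of miR-199b-5p and miR-199a-5p summed, an alternative added after the data were seen, the sum was at 355 ± 210 CPM in spermatocytes and 302 ± 192 CPM in round spermatids, with a log2 fold change of -0.22 (SE 0.39, adjusted p = 0.925 by edgeR), and none of 435 miRNAs was called (22 at an unadjusted p under 0.05).

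**Figure D3:**
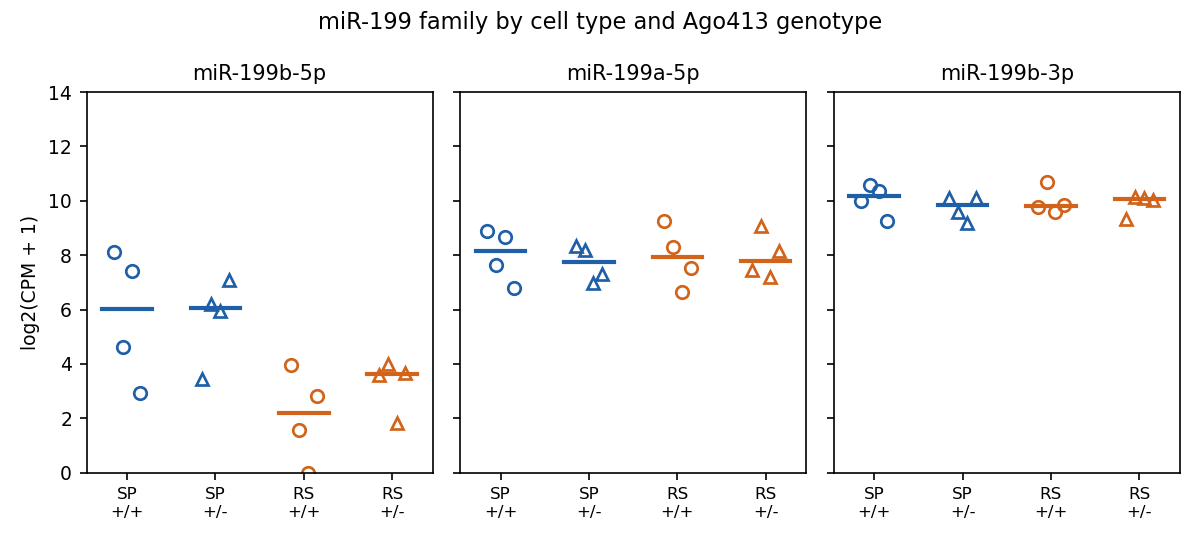
Levels as log2(CPM + 1) of miR-199b-5p, miR-199a-5p and miR-199b-3p in the 4 libraries of each genotype (+/+ circles, +/- triangles) of spermatocytes (SP, blue) and round spermatids (RS, orange), with the median as a bar. miR-199b-5p was low in all 8 round spermatid libraries and spread widely in spermatocytes, while the other 2 miRNAs had overlapping levels in all groups.

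The spermatocyte libraries with the most miR-199b-5p, Ago413+/+ replicates 1 and 3, also had the most miR-126a-3p, an endothelial miRNA, with 1761 and 1563 CPM against 396 to 798 CPM in the other 6. They also had the most miR-451a, an erythroid miRNA, with 2230 and 796 CPM. The next highest miR-451a was in Ago413+/+ replicate 4, which had the lowest miR-199b-5p of the spermatocyte libraries, 6.54 CPM. The median of miR-451a over the 4 Ago413+/+ spermatocyte libraries was 722 CPM. In round spermatids miR-126a-3p reached 2067 CPM while miR-199b-5p stayed at or below 15.1 CPM. Without Ago413+/+ spermatocyte replicates 1 and 3, an alternative added after the data were seen, the log2 fold change of miR-199b-5p was -2.29 (SE 0.58, adjusted p = 0.229 by edgeR). The fractions also differed in purity, and the part of other cells in the difference was not tested. In the Ago413-/- libraries miR-199b-5p had 166 counts in spermatocyte replicate 3 and 0 in the other 3 spermatocyte libraries, and from 0 to 3 in the 4 round spermatid libraries.

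Of the remaining 22 miRNAs with an unadjusted p under 0.05, some are named here for that p, after their values were seen. None of the 22 passed the adjusted test. With miR-199b-5p they were 5.28% of those tested, near the share of 0.05 that such a cutoff gives where nothing differs. Among the abundant ones, miR-148b-3p, which shares the seed of miR-148a-3p, was at 5295 ± 1511 CPM in spermatocytes and 6928 ± 1315 CPM in round spermatids (log2 fold change 0.39, SE 0.18). miR-140-3p, from a hairpin within Wwp2 and known from cartilage, was at 1990 ± 525 CPM and 2720 ± 437 CPM (0.45, SE 0.18). miR-296-3p was at 435 ± 128 CPM and 303 ± 70.2 CPM (-0.53, SE 0.19).

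Lower ones had larger estimates and wider errors. miR-7221-5p was at 18.6 ± 8.46 CPM in spermatocytes and 7.70 ± 4.0 CPM in round spermatids (-1.28, SE 0.38). miR-141-3p, an epithelial miRNA of the miR-200 family, was at 19.4 ± 12.9 CPM and 7.36 ± 7.81 CPM (-1.58, SE 0.60). let-7b-3p was at 10.1 ± 7.26 CPM and 22.2 ± 16 CPM (1.11, SE 0.45). The log2 fold change was at least 1 in size for 5 of the 436 miRNAs, which are these 3, miR-199b-5p and miR-145a-3p.

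Lists of miRNAs showed small median differences, each set here beside the median of -0.05 over all miRNAs tested. Members with the same mature sequence repeat the same reads, as let-7a-1-3p and let-7c-2-3p do, whose counts were equal in every library. Numbers of members above or below 0 are thus not numbers of separate measurements, and such reads enter a share of counts more than once. The X-linked testis clusters are the one described above and a smaller one at chrX:67988096-68010179. Of their 40 mature miRNAs 35 were tested, none was called in either direction, 22 had a log2 fold change above 0 and 13 below, and the median was 0.05. The range ran from -0.60 (SE 0.39) for miR-742-3p to 0.45 (SE 0.24) for miR-878-3p, and the 95% interval was within a 2-fold difference for 33 of the 35. Within Ago413+/+ 22 of the 35 were above 0, and within Ago413+/- 17. Over all 67 X-linked miRNAs tested the median was 0.05, and over 362 autosomal miRNAs -0.07, with 42 and 148 above 0. The X-linked median stayed above 0 with RLE scaling (0.08) and library totals (0.03).

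As a share of all counts, X-linked miRNAs took 29.1% ± 3.12 in spermatocytes and 31.3% ± 1.52 in round spermatids (SD, n = 8 each). The lowest, median and highest shares were 25.4%, 28.5% and 33.6% in spermatocytes and 28.6%, 31.3% and 33.5% in round spermatids. The difference of 2.16 percentage points gave p = 0.0988 in an exact two-sided permutation test within genotype over 4900 arrangements, and 0.296 after adjustment over the 6 shares tested in this way.

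In the miR-34 and miR-449 family, 8 of 11 members were tested and none was called, 2 had a log2 fold change above 0 and 6 below, and the median was -0.18. The family took 13.4% ± 4.45 of the counts in spermatocytes and 13.2% ± 3.80 in round spermatids (SD, n = 8 each). miR-449a-5p, whose hairpin lies in an intron of Cdc20b, was at 7833 ± 4406 CPM in spermatocytes and 6002 ± 2953 CPM in round spermatids (-0.43, SE 0.27). miR-34b-5p was at 8293 ± 4378 CPM and 7366 ± 2190 CPM (-0.13, SE 0.27). The passenger strand miR-34c-3p was at 5865 ± 755 CPM and 4748 ± 1218 CPM (-0.30, SE 0.17), beside 0.11 for its partner miR-34c-5p.

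Of the let-7 family 15 of 23 members were tested and none was called, with 4 above 0, 11 below and a median of -0.17. The family took 11.8% ± 2.43 of the counts in spermatocytes and 10.6% ± 1.57 in round spermatids (exact permutation p = 0.280, adjusted 0.420). The median was 0.19 within Ago413+/+ and -0.36 within Ago413+/-. Of miR-17-92 and its paralogs, known as growth-promoting clusters, 18 of 28 were tested and none was called, with a median of -0.11.

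The Sfmbt2 cluster, a large block of repeated hairpins in an intron of Sfmbt2, had 35 of its 80 mature miRNAs tested. None was called, 30 had a log2 fold change below 0 and 5 above, and the median was -0.17. Its share of the counts was 0.592% ± 0.0826 in spermatocytes and 0.511% ± 0.0532 in round spermatids, with exact permutation p = 0.0212 and adjusted p = 0.127. Exchanging the cell types within pairs of the same genotype and replicate number gave an adjusted p of 0.0469 in an exact permutation test, which passes. The unadjusted p of that permutation test was 0.00781, the smallest that 8 pairs allow. The labels do not give this pairing. The imprinted Dlk1-Dio3 cluster had 14 of 112 members tested, none called, a median of -0.18, and 0.152% ± 0.0427 against 0.130% ± 0.0456 of the counts (exact permutation p = 0.191, adjusted 0.383).

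Other families were near the overall median. None was called among the 11 tested of the miR-30 family (median -0.09), 13 of the miR-15 and miR-16 family (-0.15), 3 of the miR-183 cluster (-0.01), 6 of the miR-200 and miR-141 family (-0.17) or 6 of the miR-181 family (0.12). The miR-10, miR-99, miR-100 and miR-125 miRNAs, which lie in clusters with let-7 or within Hox clusters, had a median of 0.30, with 8 of 12 above 0 and none called. Their share of the counts was 4.06% ± 1.51 in spermatocytes and 5.26% ± 2.13 in round spermatids.

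miRNAs reported to act on transcripts of the post-meiotic program could be followed only in part. Of 5 in that list 3 had no count in the 16 libraries. miR-122-5p, the main miRNA of liver, ran from 6.47 to 1321 CPM in spermatocytes and from 7.80 to 733 CPM in round spermatids, with medians of 106 and 50.2 CPM (log2 fold change -0.60, SE 0.90). miR-18a-5p was at 174 ± 77 CPM and 167 ± 61 CPM (-0.08, SE 0.25).

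**Figure D4:**
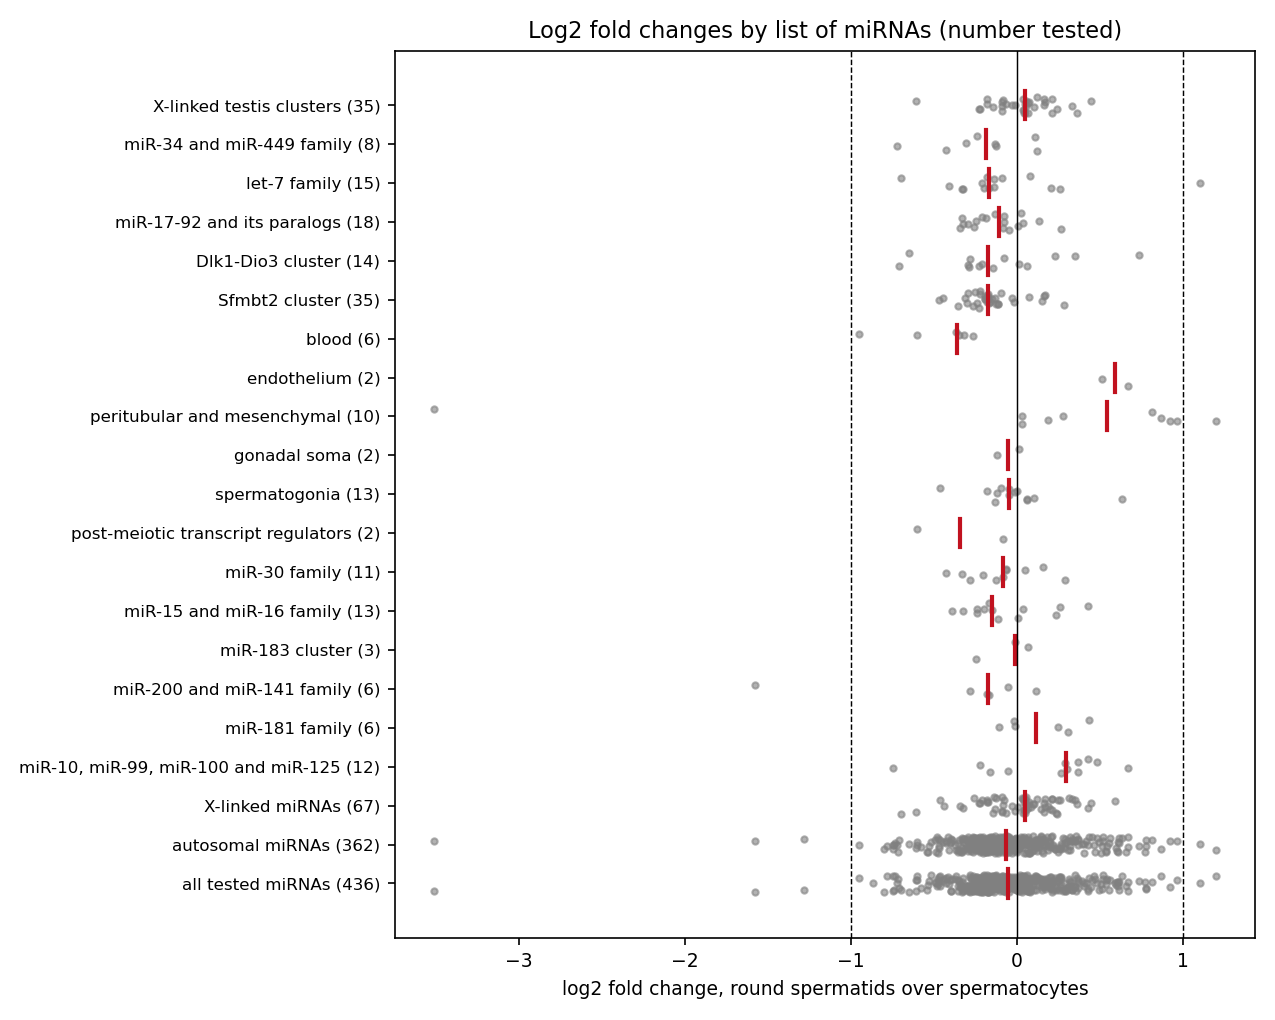
Log2 fold changes of round spermatids over spermatocytes (x) for the members of each list (points, number tested in brackets), with the list's median as a red bar, 0 as a solid line and 2-fold differences as dashed lines. The medians lay between -0.36 and 0.59, and the 1 point below -3 is miR-199b-5p, which appears in the rows of the peritubular list, the autosomal miRNAs and all miRNAs.

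Markers of other testicular cells were present in all 16 libraries. The peritubular and mesenchymal list had all 10 members tested, with 1 called (miR-199b-5p), 9 above 0 and a median of 0.55, so that the called member went against the rest of its list. miR-143-3p, a smooth muscle miRNA, was at 8412 CPM in Ago413+/+ round spermatid replicate 1 and 5288 CPM in Ago413+/- round spermatid replicate 4, and from 1022 to 2632 CPM in the other 14 libraries. The same 2 libraries held 168.6 and 125.0 CPM of miR-145a-3p from the same locus, with 9.70 to 38.3 CPM elsewhere. The log2 fold changes were 0.96 (SE 0.39) and 1.20 (SE 0.47), neither past the adjusted test.

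The endothelial miR-126a-3p and miR-126a-5p had log2 fold changes of 0.51 (SE 0.32) and 0.67 (SE 0.47). All 6 tested blood miRNAs of 13 were below 0 with a median of -0.36 and none was called, but the median was -1.0 within Ago413+/+ and 0.71 within Ago413+/-. miR-202-5p and miR-202-3p, of the gonadal soma, were at -0.12 (SE 0.30) and 0.02 (SE 0.37). Together these markers took from 0.810% to 1.63% of the counts in spermatocytes and from 0.641% to 1.88% in round spermatids (exact permutation p = 0.682, adjusted 0.682). The spermatogonial list had 13 of 24 members tested, none called and a median of -0.05.

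The dominant arm of a hairpin was nearly always the same in both cell types. Both arms were tested for 111 hairpins, and 106 had the same dominant arm on average. Among the 73 hairpins whose arms summed to 50 or more counts in each library, all 73 did, and 64 had it in all 16 libraries. The 5 that differed, miR-145a, miR-345, miR-362, miR-7221 and miR-877, had mean log2 ratios of the arms between -0.67 and 0.33 in each cell type, smaller than or close to their SDs of 0.69 to 1.60. Some arms include reads of an identical arm of other hairpins, as miR-199b-3p does, so that these are ratios of counts and not of single hairpins.

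The difference between the cell types was then compared between genotypes. No miRNA of 436 had a different cell type effect in Ago413+/- and Ago413+/+ at an adjusted p under 0.05 (0.0%, edgeR interaction), and 15 had an unadjusted p under 0.05. The log2 fold changes of the genotypes, which come from separate libraries, had a Pearson r of 0.10 across 374 miRNAs tested in both and the same sign for 208 of them (55.6%).

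miR-146a-5p, which represses the adaptors Traf6 and Irak1 and is known from undifferentiated spermatogonia, is named for its genotype values, chosen after these were seen. In Ago413+/- spermatocytes it was at 287, 269, 348 and 589 CPM, and in Ago413+/- round spermatids at 2966, 1795, 1626 and 1027 CPM. In Ago413+/+ spermatocytes it was at 186, 198, 4803 and 301 CPM, and in Ago413+/+ round spermatids at 372, 825, 1072 and 448 CPM. Ago413+/+ spermatocyte replicate 3 stood above all 15 other libraries, and the other 3 Ago413+/+ spermatocyte libraries below all round spermatid libraries. How often other miRNAs separate in such subsets of libraries was not counted.

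Over the 16 libraries the log2 fold change of miR-146a-5p was 0.64 (SE 0.66, adjusted p = 0.881 by edgeR) and it was not called. Without Ago413+/+ spermatocyte replicate 3 it was 2.00 (SE 0.29, adjusted p = 0.00179), and miR-146a-5p was then 1 of 2 called among 428 miRNAs (0.467%). Within Ago413+/- it was 2.29 (SE 0.37, adjusted p = 0.0382), the 1 call among 378 miRNAs (0.265%), and within Ago413+/+ it was -1.01 (SE 0.91), with no call among 418 (0.0%, edgeR, 13 at an unadjusted p under 0.05). The interaction was 3.34 on the log2 scale, with an unadjusted p of 0.00917 and an adjusted p of 0.993 (edgeR). In the 10 libraries numbered up to 60 the log2 fold change was 2.36 (SE 0.29, adjusted p = 0.00181, 1 call among 415 miRNAs, 0.241%), and in the other 6 it was -0.98 (SE 0.76, 0 calls among 386). miR-146b-5p, with the same seed, had a log2 fold change of 0.06 (SE 0.14).

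**Figure D5:**
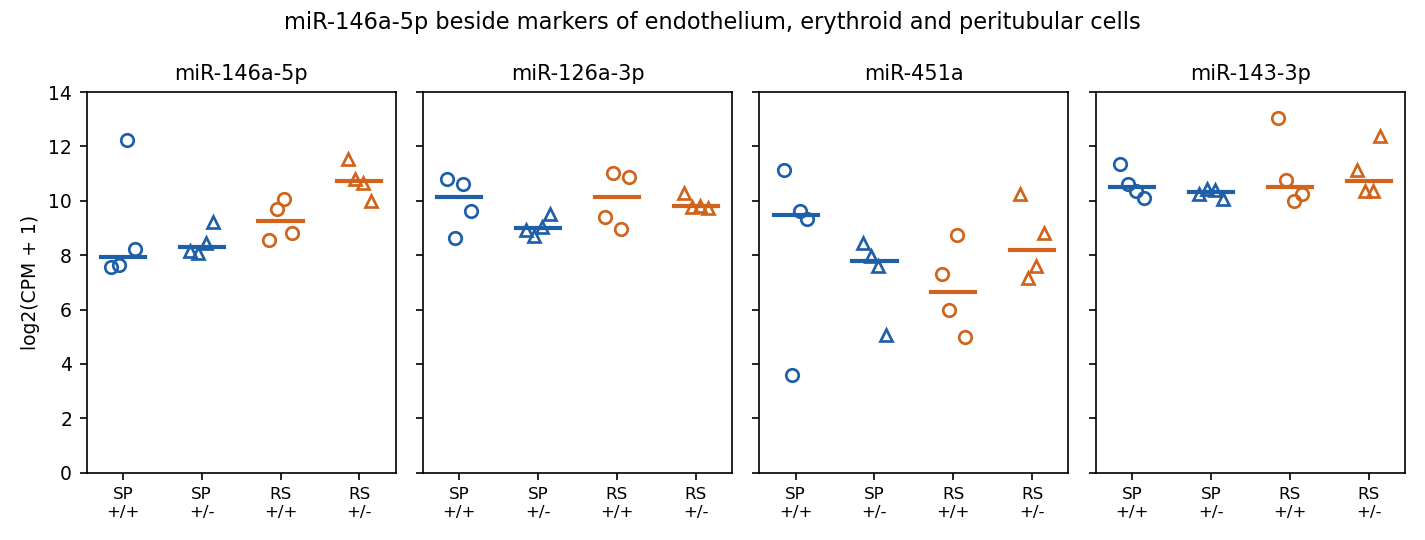
Levels as log2(CPM + 1) of miR-146a-5p, miR-126a-3p, miR-451a and miR-143-3p in the 4 libraries of each genotype (+/+ circles, +/- triangles) of spermatocytes (SP, blue) and round spermatids (RS, orange), with the median as a bar. In miR-146a-5p the highest symbol of all is an Ago413+/+ spermatocyte library at 4803 CPM.

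Ago413-/- libraries did not give a different contrast between the cell types for any of 450 miRNAs at an adjusted p under 0.05 (0.0%, edgeR). The lowest adjusted p was 0.108, that of miR-195a-3p, and 50 had an unadjusted p under 0.05, beside 23 of 436 in the main comparison (edgeR). Ago413-/- spermatocyte replicate 2 was the shallowest of the 24 libraries, with 182904 counts and 407 miRNAs with a count. The contrast was not refitted without it.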

How the data were processed

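Small RNA of enriched spermatocytes and round spermatids was sequenced by the authors, who trimmed the reads with Trim Galore, used the miRDeep2 quantifier to count reads on miRBase mature mouse miRNAs and deposited raw counts per mature miRNA in 24 libraries, without normalization or summing of families (tool versions are not given in the sources used here). All columns were used. Genotype, cell type and replicate came from the labels. By the study's methods, fractions of both cell types came from gradients loaded with a germ cell suspension, so libraries of both can share mice. Nothing in the labels says that equal replicate numbers share mice. Library numbers of a pair follow each other in 7 of 8 pairs of genotype and replicate number. p-values measure the spread between these libraries.

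From the deposited counts, miRNAs that reached 10 counts in 3 or more of the 16 libraries were kept. Counts were scaled by TMM and tested with the quasi-likelihood test of edgeR 4.0.16 (R 4.3.3), with terms for genotype and cell type, the Benjamini-Hochberg adjustment over all 436 miRNAs, and a call at an adjusted p under 0.05 with a log2 fold change of 1 or more in size. Interactions were called on the adjusted p. The tested miRNAs hold 99.9% of the counts. The SE is the Wald error from the fitted weights and the moderated quasi-likelihood dispersion. Intervals and the limit of 3 counts behind a count of 0 cover counting error or the spread of libraries only, since reads carry no molecular identifiers. DESeq2 1.42.0 was an alternative. Shares of counts were compared by exact permutation within genotype in Python 3.11.15, for which the smallest possible p is 0.000408. The edgeR fit of the main comparison and the permutation test were tested on simulated data.

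Sequences, hairpin genes and positions are from RefSeq (GRCm38.p6) and overlapping genes from GENCODE on the same build. The 25 most abundant miRNAs, called miRNAs and called members of lists are named by a fixed rule, and others are said to be chosen after their values were seen. The comparison, the lists of miRNAs and the tests were chosen with earlier results of these data known. The alternatives were RLE scaling, library totals, no filter, 10 counts in every library, the adjusted p alone, the replicate block, no genotype term, each genotype alone, libraries numbered up to 60 or above, all 24 libraries, sums by seed (matched sequences only) and leaving out each library. Added after the data were seen were miR-199b-5p summed with miR-199a-5p, counts divided by matched hairpins, and 2 libraries left out together.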

Additional observations from a re-analysis of the deposited data

Results flagged for a closer look

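Each group of 8 libraries was checked with Dixon's test at the 95% level for a library far from the others, for the 25 most abundant miRNAs, the miRNAs described above for their differences or as markers, the 6 shares of counts and the totals. A library stood apart in 14 of 82 groups. The rate of 1 in 20 for the test, or 4.10 groups, holds for independent groups of normal values. These groups share libraries, were tested on CPM without a log, and include miRNAs chosen after their values were seen. The number of groups is thus no measure of an excess over chance.

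miR-146a-5p was at 4803 CPM in Ago413+/+ spermatocyte replicate 3, with 186 to 589 CPM in the other 7 spermatocyte libraries. Ago413+/+ spermatocyte replicate 1 stood apart in miR-122-5p (1321 CPM, others 6.47 to 298), miR-451a (2230 CPM, others 11.2 to 796) and miR-143-3p (2632 CPM, others 1077 to 1557). Ago413+/- round spermatid replicate 1 stood apart in miR-122-5p (733 CPM, others 7.80 to 186), miR-451a (1206 CPM, others 30.7 to 451), miR-881-3p (139191 CPM, others 73654 to 103591) and miR-148a-3p (51799 CPM, others 29100 to 36112).

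Among the abundant miRNAs, Ago413+/- spermatocyte replicate 4 stood apart in miR-871-3p (61072 CPM, others 19409 to 32725), let-7a-5p (62786 CPM, others 18416 to 36407) and miR-470-5p (40890 CPM, others 10836 to 24325). Ago413+/+ round spermatid replicate 3 stood apart in let-7a-5p (39970 CPM, others 12945 to 24553) and miR-184-3p (30235 CPM, others 6722 to 17023). miR-21a-5p was at 12824 CPM in Ago413+/- spermatocyte replicate 1, with 7911 to 10216 CPM in the other 7. No cause of these values was tested.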

How the results depend on the processing

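miR-199b-5p was called lower with DESeq2, RLE scaling, library totals, no genotype term and the adjusted p alone. In sums by seed it has no matched sequence and was not summed with another miRNA, so these say nothing of its call. The number of miRNAs called lower fell to 0 with at least 10 counts in every library, where miR-199b-5p was not among the 253 tested, in each genotype alone (Ago413+/+ or Ago413+/-), in the libraries numbered up to 60 and in those above, with all 24 libraries, with miR-199b-5p summed with miR-199a-5p and without both Ago413+/+ spermatocyte libraries high in miR-126a-3p, and it was 2 with no filter on low counts, with miR-8117 (-3.09) as the other. The number called higher rose from 0 to 1 with no filter on low counts (miR-145a-3p, 1.22), in Ago413+/- alone, in the libraries numbered up to 60, without Ago413+/+ spermatocyte replicate 3 and without both libraries high in miR-126a-3p (miR-146a-5p in these 4). Leaving out each library in turn gave 0 to 1 called lower and 0 to 1 called higher. The causes were not tested. With the replicate block (8 pairs of genotype and number), 1 miRNA was called lower, 0 higher and 0 in the interaction, miR-199b-5p was at -3.09, and the Sfmbt2 share, -0.0805 percentage points in both analyses, passed at an adjusted p of 0.0469 in place of 0.127. The deviations of same-numbered libraries correlated above 0.1 in 5 of 8 pairs, 8 of 16 libraries correlated best with their own number, of 4 candidates each, and the library numbers follow each other in 7 of 8 pairs. This is a hint of pairing from the data. The labels do not say what a number shares, and not every pair passed 0.1. The block changed no other call among the named miRNAs, shares and interactions, but moved miR-146a-5p from 0.64 to 1.42 (adjusted p = 0.622 by edgeR), the 1 of 53 miRNAs whose fold moved over 1.5 times, and miR-143-3p from 0.96 to 0.57. The 25 most abundant miRNAs kept no call in all their alternatives. Depth limits the low miRNAs, since the 95% interval was within a 2-fold difference for 47 of the 100 least abundant.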

Other observations

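miRNAs with numbers from miR-7210 to miR-7242, chosen after their values were seen, were mostly lower in round spermatids. Of 24 tested, 21 had a log2 fold change below 0, beside 245 of all 436 miRNAs, and the median was -0.34, beside -0.05. None was called (edgeR), and 4 had an unadjusted p under 0.05, miR-7221-5p, miR-7234-5p, miR-7232-3p and miR-7223-5p. Their summed level was 4896 ± 985 CPM in spermatocytes and 4016 ± 830 CPM in round spermatids (SD, n = 8 each), and the ranges overlapped, from 3355 to 6166 CPM and from 2953 to 5330 CPM. The median was -0.32 with RLE scaling, -0.39 with library totals, -0.19 within Ago413+/+ and -0.60 within Ago413+/-. The most abundant of them, miR-7210-5p, was at 2243 CPM in spermatocytes and 1845 CPM in round spermatids, with a log2 fold change of -0.27 (SE 0.19).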
